A study of Sus scrofa with 4 samples.

Results

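Amino acid transporters of the solute carrier families SLC1, SLC3, SLC6, SLC7, SLC36, SLC38 and SLC43 were followed in RNA of pig kidney, with and without transplantation into a non-human primate. The genes were chosen by name, as every gene whose symbol starts with SLC1A, SLC3A, SLC6A, SLC7A, SLC36A, SLC38A or SLC43A followed by a digit. Of 59 such symbols, 47 had at least 10 counts in at least 1 library and were tested, among 18168 genes that met the same minimum. The rule itself uses no measured value other than this minimum. The names bring in a few genes that carry other substances, such as the taurine transporter SLC6A6, the creatine transporter SLC6A8 and the serotonin transporter SLC6A4. SLC7A6OS, which is named for its place opposite SLC7A6, is also taken in by its symbol and is not itself a transporter.

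There were 4 libraries, 1 for each of 4 groups. A kidney of the genotype GalT-/-;hCD39;hCD46;hCD55;TBM, called CD39/CD46/CD55/TBM from here on, was taken 6 weeks after transplantation. A kidney of the genotype GalT-/-;hCD39;hCD55, called CD39/CD55, was taken 4 weeks after. Each genotype also had 1 untransplanted kidney. All pigs thus lacked GalT, whose product makes the alpha-Gal sugar that primates reject, and bore human CD39, an enzyme that breaks down extracellular ATP, and human CD55, a complement inhibitor. The first genotype added human CD46, another complement inhibitor, and TBM, thrombomodulin, which limits clotting. The sources used here do not give the promoters of the transgenes, the pigs' age and sex, the number of animals or whether kidneys share an animal. In the transplanted kidneys the genotype, the weeks elapsed, the recipient and any batch differ together and cannot be told apart.

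In the proximal tubule of the kidney, nearly all filtered amino acids are taken back. Sodium-coupled carriers and exchangers in the brush border, the apical membrane that faces the filtrate, bring them into the cell, and other exchangers in the basolateral membrane pass them on to the blood. Several of these carriers work only with a partner: SLC7A light chains need the heavy chains SLC3A1 or SLC3A2, and the SLC6A carriers of the brush border need a partner such as collectrin (TMEM27) to reach the surface. Other members of these families feed growing cells with glutamine, leucine or cystine, sit on lysosomes, or clear transmitters in the nervous system.

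The libraries held 10346863 counts (transplanted CD39/CD46/CD55/TBM), 11566041 (transplanted CD39/CD55), 13226372 (untransplanted CD39/CD46/CD55/TBM) and 14092905 counts (untransplanted CD39/CD55). The 47 genes took 0.0938% and 0.116% of the counts of the transplanted kidneys, against 0.143% and 0.155% of those of the untransplanted kidneys, in the same genotype order. Counts of ribosomal RNA loci were 18.9% and 22.4% of the transplanted libraries, against 12.6% and 10.8% of the untransplanted ones. Transcripts of the deleted gene, listed as GGTA1P, were counted at 291 to 316 in every library, and since the part removed is not given, they check nothing. Of the 12 symbols under the minimum, none exceeded 9 counts in any library. They include the proximal tubule glycine and proline transporter SLC36A2, with 5 and 4 counts in the transplanted kidneys and 0 in both untransplanted ones, and the betaine transporter SLC6A12, with 6 and 9 counts against 2 and 4. Of the 47 tested genes, 34 reached 10 counts in every library, and 5 met the minimum through 1 state of the kidney alone (SLC1A3, SLC1A7, SLC6A2, SLC7A10 and SLC7A14). The last 4 of these met it through 1 library alone, so that calls of them as higher in that library follow in part from the minimum. SLC1A3 met it through the untransplanted kidneys alone (16 and 30 counts, against 9 and 7 in the transplanted ones). Its place among genes lower after transplantation thus also follows in part from the minimum. Levels below are counts per 1000000 (CPM) after scaling by the trimmed mean of M-values (TMM), and 3 counts, the most that a count of 0 allows, come to 0.290 and 0.242 CPM in the transplanted libraries and to 0.237 and 0.219 CPM in the untransplanted ones.

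Transplantation was tested over both genotypes, 2 transplanted libraries against 2 untransplanted ones, with edgeR's quasi-likelihood test and Benjamini-Hochberg adjustment over all 18168 genes. "Rose" and "fell" are used for genes with an adjusted p under 0.05. Of the 47 transporter genes, 3 fell (6.38%) and 0 rose, beside 2.71% and 1.24% of all genes tested. All 3 are apical carriers of the proximal tubule, namely SLC7A9, SLC1A1 and SLC6A18. With genotype as a block in the fit, 9 of the 47 fell and 5 rose, beside 1681 and 1124 of all 18168 genes. Those added were SLC7A7, SLC7A8, SLC7A13, SLC7A5, SLC1A5 and SLC38A7 among the lower and SLC38A1, SLC36A4, SLC6A4, SLC6A6 and SLC43A3 among the higher, and for these 11 genes the adjusted p without the block was over 0.05. At an unadjusted p under 0.05 without the block, 7 of the 47 were lower and 7 were higher, beside 1946 and 1633 of all 18168 genes. The median log2 fold change of the 47 was -0.19, against 0.03 for all genes tested. Both transplanted libraries lay below both untransplanted ones for 19 of the 47 genes (40.4%), beside 25.5% of all genes, and above them for 12 (25.5%), beside 26.3%. SLC1A3 among the 19, and SLC1A7 and SLC6A2 among the 12, met the count minimum through 1 state alone.

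A pair of single libraries was also compared within each genotype. A gene is called higher or lower in such a pair when its scaled counts differ at least 2-fold and the exact 95% counting interval of the ratio leaves out no change. These calls compare libraries, not conditions, and have no replicate check. In the CD39/CD46/CD55/TBM pair, 11 of the 47 genes were called higher after transplantation (23.4%) and 10 lower (21.3%), beside 15.9% and 16.3% of all genes. In the CD39/CD55 pair, 7 were called higher (14.9%) and 13 lower (27.7%), beside 13.2% and 13.7%. SLC7A9, SLC1A1, SLC6A18, SLC7A8 and SLC38A7 were called lower in both pairs, 10.6% of the 47 genes beside 7.63% of all genes. SLC38A1, SLC36A4, SLC6A4 and SLC6A6 were called higher in both, 8.51% beside 5.88%. In bulk tissue, fewer cells of a type and less RNA per cell cannot be told apart, and this holds for every gene below.

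**Figure D1:**
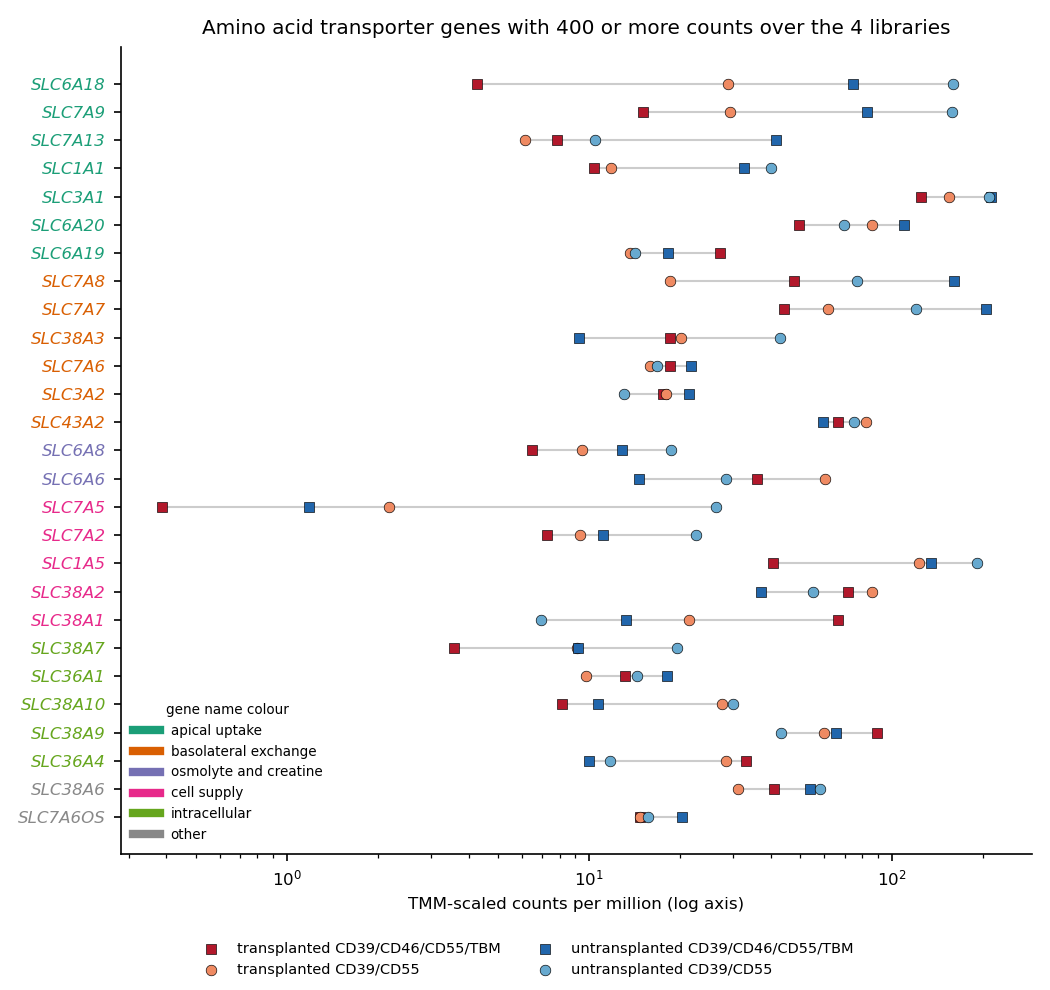
TMM-scaled CPM (log axis) of the 27 amino acid transporter genes with a total of at least 400 counts, 1 point per library, with gene names coloured by role. Red and orange points are transplanted kidneys and blue points untransplanted ones; for SLC6A18, SLC7A9 and SLC1A1 both transplanted points lie to the left of both untransplanted points, and for SLC38A1, SLC36A4 and SLC6A6 they lie to the right.

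Of the 7 apical carriers of the proximal tubule tested, 3 fell and 0 rose, with a median log2 fold change of -1.71, and the summed level of the 7 was 239 and 331 CPM in the transplanted CD39/CD46/CD55/TBM and CD39/CD55 kidneys, against 572 and 663 CPM in the untransplanted kidneys of these genotypes. In the CD39/CD46/CD55/TBM pair 5 of the 7 were called lower, in the CD39/CD55 pair 3, and none was called higher in either.

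SLC7A9 is the light chain that takes up cystine and dibasic amino acids from the filtrate, and its loss causes cystinuria in humans. It lies on chromosome 6 from 42664795 to 42706113 (Sscrofa11.1). Its level was 15.1 CPM in transplanted CD39/CD46/CD55/TBM and 29.2 CPM in transplanted CD39/CD55, against 82.8 and 158 CPM in the untransplanted kidneys of the same genotypes. The groups did not overlap, and both transplanted values were under every untransplanted one. The log2 fold change was -2.44 (SE 0.50, edgeR adjusted p = 0.0185), and the ratios within the genotypes were nearly equal, at -2.45 (95% counting interval -2.71 to -2.21) in CD39/CD46/CD55/TBM and -2.44 (-2.60 to -2.28) in CD39/CD55. The adjusted p of SLC7A9 stayed under 0.05 in all 11 alternative fits (7.97e-06 to 0.0399). TDRD12, which overlaps it in the annotation, had 99 and 59 counts in the transplanted kidneys and 124 and 39 in the untransplanted ones.

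SLC6A18, a neutral amino acid carrier known from mouse kidney, lies on chromosome 16 from 79278126 to 79292463 and overlaps no other annotated gene. It had 4.25 CPM in transplanted CD39/CD46/CD55/TBM and 28.7 CPM in transplanted CD39/CD55, against 74.5 and 160 CPM in the untransplanted kidneys of these genotypes. All 4 values were well apart, with the transplanted CD39/CD46/CD55/TBM kidney lowest. The log2 fold change was -2.83 (SE 0.71, edgeR adjusted p = 0.0461). The call was lost when libraries were scaled by total count (adjusted p = 0.0672), and adjusted p-values over the 11 alternatives ran between 1.89e-07 and 0.0672. The ratio was -4.12 (-4.60 to -3.69) in the CD39/CD46/CD55/TBM pair and -2.48 (-2.65 to -2.32) in the CD39/CD55 pair, and the difference between these, -1.64 (-2.10 to -1.17), was past the 2-fold threshold.

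SLC1A1, the carrier of glutamate, aspartate and cysteine in the brush border, lies on chromosome 1 from 217366493 to 217441643. Its level was 10.3 CPM (CD39/CD46/CD55/TBM) and 11.8 CPM (CD39/CD55) in the transplanted kidneys, against 32.5 and 40.0 CPM in the untransplanted ones. The values lay close together within each state and did not overlap between states. The log2 fold change was -1.71 (SE 0.42, edgeR adjusted p = 0.0390). This call was lost without the untransplanted CD39/CD55 library (adjusted p = 0.159), without the transplanted CD39/CD46/CD55/TBM library (0.10) and under total count scaling (0.0575), within a range of 0.000928 to 0.159 over the 11 alternatives. The overlapping LOC110256886 had 49 and 89 counts in the transplanted kidneys against 193 and 191 in the untransplanted ones. Counts of SLC1A1 may include reads of this locus, and such reads cannot be told apart here.

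The other apical carriers did not pass the test without a block, and SLC7A13 alone of them fell with genotype as a block. SLC3A1, the heavy chain that SLC7A9 needs, had 125 and 155 CPM in the transplanted CD39/CD46/CD55/TBM and CD39/CD55 kidneys, against 213 and 211 CPM in the untransplanted ones (log2 fold change -0.60, SE 0.43, edgeR adjusted p = 0.464). Its transplanted values were below the untransplanted ones, by less than 2-fold in each genotype. PREPL, which overlaps SLC3A1, had 420 and 660 counts in the transplanted kidneys, against 2403 and 2372 in the untransplanted ones. Counts of SLC3A1 may include reads of PREPL. SLC7A13, a second light chain of SLC3A1 known from mouse, had 7.83 and 6.14 CPM in the transplanted kidneys, against 41.5 and 10.4 CPM in the untransplanted ones (-1.89, SE 0.59, adjusted p = 0.0958). The untransplanted CD39/CD46/CD55/TBM kidney stood above the other 3 libraries for SLC7A13, and the gene was called lower in that genotype alone (-2.40, -2.76 to -2.07).

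SLC6A20, which carries proline and other imino acids, had 49.3 CPM in transplanted CD39/CD46/CD55/TBM and 86.4 CPM in transplanted CD39/CD55, against 110 and 69.5 CPM in the untransplanted ones. The states overlapped, and the ratio was -1.16 in the CD39/CD46/CD55/TBM pair and 0.31 in the CD39/CD55 pair. SACM1L, which overlaps SLC6A20, had 883 and 1618 counts in the transplanted kidneys, against 2120 and 1773 in the untransplanted ones. Counts of SLC6A20 may include reads of SACM1L. SLC6A19, the main neutral amino acid carrier of the brush border and the gene mutated in human Hartnup disorder, had 27.2 and 13.7 CPM in the transplanted kidneys, against 18.2 and 14.1 CPM in the untransplanted ones (log2 fold change 0.34, edgeR adjusted p = 0.724). It was called in neither pair, with ratios of 0.58 (0.32 to 0.84) and -0.05 (-0.36 to 0.26). SLC6A19 and SLC6A18 lie 1476 bases apart on chromosome 16.

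Among the basolateral exchangers and their partners 0 of 6 passed the test, and their median log2 fold change was -0.30. Their summed level was 213 and 216 CPM in the transplanted CD39/CD46/CD55/TBM and CD39/CD55 kidneys, against 478 and 345 CPM in the untransplanted kidneys. With genotype as a block in the fit, SLC7A8 and SLC7A7 fell. SLC7A8, an exchanger of neutral amino acids, had 47.5 and 18.5 CPM in the transplanted kidneys, against 161 and 76.7 CPM in the untransplanted ones. Each transplanted kidney was under each untransplanted one, and the gene was called lower in both pairs, at -1.76 (-1.91 to -1.62) in CD39/CD46/CD55/TBM and -2.05 (-2.26 to -1.84) in CD39/CD55. The test over both genotypes gave -1.85 (SE 0.54, edgeR adjusted p = 0.0759), with adjusted p-values of 0.000183 to 0.262 over 11 alternatives.

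SLC7A7, the exchanger that passes dibasic amino acids to the blood and is mutated in human lysinuric protein intolerance, had 44.1 and 61.7 CPM in the transplanted CD39/CD46/CD55/TBM and CD39/CD55 kidneys, against 205 and 121 CPM in the untransplanted ones. The states did not overlap, and the log2 fold change was -1.62 (SE 0.45, edgeR adjusted p = 0.0662). SLC7A7 was called lower in the CD39/CD46/CD55/TBM pair (-2.22, -2.37 to -2.08) and lay just short of 2-fold in the CD39/CD55 pair (-0.97, -1.09 to -0.84). OXA1L, which overlaps it in the annotation, had 607 and 1075 counts in the transplanted kidneys, against 3139 and 2447 in the untransplanted ones. Counts of SLC7A7 may include reads of OXA1L, and such reads cannot be told apart here.

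SLC38A3, the glutamine carrier of the basolateral membrane that feeds ammonia production, was the one gene called in opposite directions in the genotypes. It had 192 counts (18.6 CPM) in transplanted CD39/CD46/CD55/TBM tissue, against 117 (9.25 CPM) in the untransplanted kidney of that genotype. In CD39/CD55 it had 250 counts (20.2 CPM) in the transplanted kidney, against 587 (42.8 CPM) in the untransplanted one. The transplanted kidneys were thus close to each other, and the untransplanted ones lay on either side of them. The ratios were 1.0 (0.67 to 1.35) in CD39/CD46/CD55/TBM, just at the 2-fold threshold, and -1.08 (-1.30 to -0.87) in CD39/CD55.

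The remaining basolateral genes differed by less than 2-fold in each pair. SLC43A2, a facilitator for branched-chain and aromatic amino acids, had 66.6 and 82.2 CPM in the transplanted CD39/CD46/CD55/TBM and CD39/CD55 kidneys, against 59.4 and 75.2 CPM in the untransplanted ones. SLC3A2, the heavy chain for most basolateral exchangers, had 17.5 and 17.9 CPM, against 21.4 and 13.0 CPM (log2 fold change 0.04, edgeR adjusted p = 0.970). SLC7A6 had 191 and 196 counts in the transplanted kidneys, against 274 and 231 in the untransplanted ones, and the overlapping SLC7A6OS had 152 and 182 against 257 and 215. Counts of these overlapping genes were close in every library and may hold the same reads.

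Counts of a light chain were also set against those of its partner within each library, for 10 ratios in all, since such a ratio does not depend on how libraries are scaled. SLC7A9 had 0.120 and 0.189 counts per count of SLC3A1 in the transplanted CD39/CD46/CD55/TBM and CD39/CD55 kidneys, against 0.389 and 0.751 in the untransplanted ones. The ratio was lower after transplantation by a log2 difference of -1.69 (counting interval -1.95 to -1.43) in CD39/CD46/CD55/TBM and -1.99 (-2.17 to -1.81) in CD39/CD55. Counts of the light chain thus dropped relative to those of its heavy chain in both pairs, though counts of SLC3A1 may include reads of the overlapping PREPL. Per count of SLC3A2, SLC7A7 had 2.52 and 3.44 counts in the transplanted kidneys, against 9.59 and 9.26 in the untransplanted ones. SLC7A8 had 2.71 and 1.03 per count of SLC3A2, against 7.53 and 5.88. In both genotypes these exchangers were lower relative to their heavy chain, while SLC7A6 had 1.06 and 0.883 per count of SLC3A2, against 1.01 and 1.29.

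The neutral amino acid carriers next to each other on chromosome 16 parted. SLC6A18 had 0.157 counts per count of SLC6A19 in transplanted CD39/CD46/CD55/TBM and 2.10 in transplanted CD39/CD55, against 4.10 and 11.3 in the untransplanted ones. The log2 difference was -4.71 (-5.21 to -4.21) in the CD39/CD46/CD55/TBM pair and -2.43 (-2.77 to -2.09) in the CD39/CD55 pair. Per count of TMEM27, which encodes collectrin, SLC6A18 had 0.0356 and 0.0996 counts in the transplanted kidneys, against 0.226 and 0.455 in the untransplanted ones. SLC6A19 had 0.227 and 0.0474, against 0.0551 and 0.0402, with a difference of 2.04 (1.78 to 2.31) in CD39/CD46/CD55/TBM and 0.24 (-0.06 to 0.54) in CD39/CD55. Relative to TMEM27, SLC6A18 was therefore lower in both transplanted kidneys, and SLC6A19 was higher in the CD39/CD46/CD55/TBM one. In the CD39/CD46/CD55/TBM pair TMEM27 itself was called lower (-1.46, -1.56 to -1.37), while SLC6A19 was not called (0.58).

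**Figure D2:**
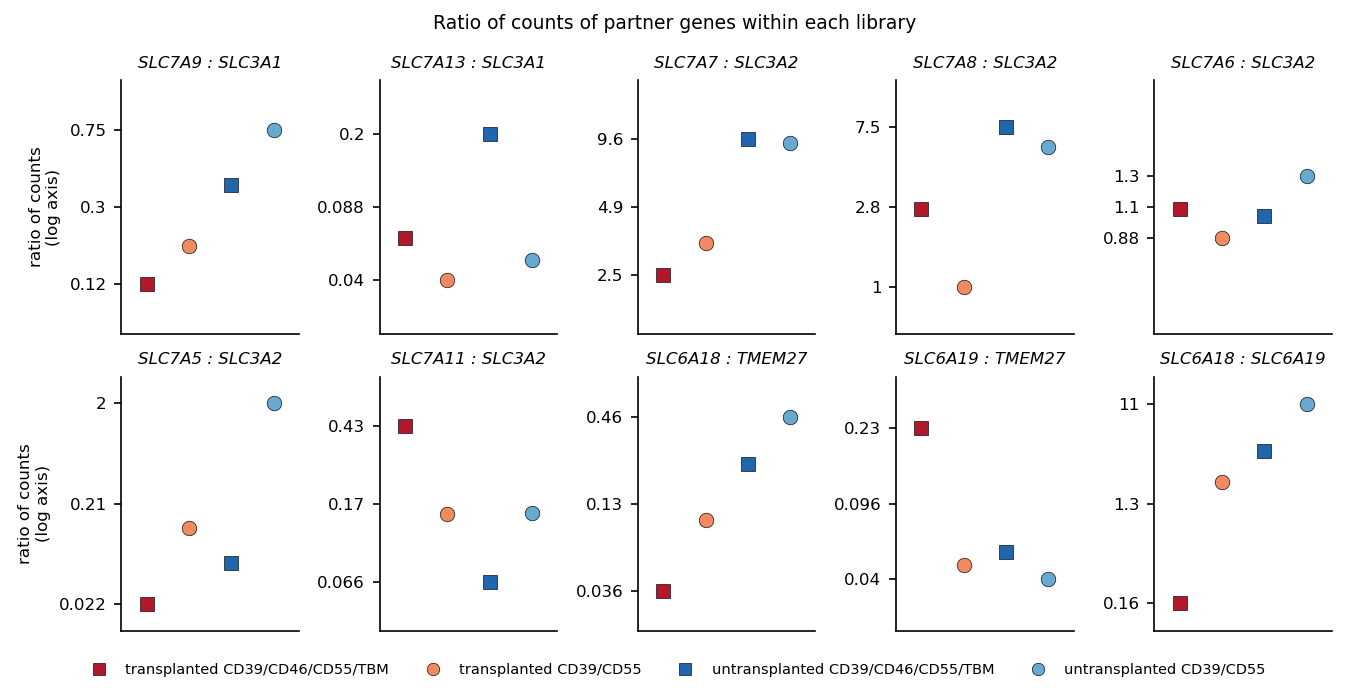
Ratio of raw counts of the first gene to the second within each library, on a log axis of its own in each panel, 1 point per library (red and orange, transplanted; dark and light blue, untransplanted). The SLC7A9 to SLC3A1 ratio was 0.120 and 0.189 in transplanted kidneys against 0.389 and 0.751 in untransplanted ones, while that of SLC7A6 to SLC3A2 lay between 0.883 and 1.29 in all 4.

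Carriers of osmolytes and creatine did not move as a group, with 0 of 3 passing the test. SLC6A6, which takes up taurine, had 36 and 60.3 CPM in the transplanted CD39/CD46/CD55/TBM and CD39/CD55 kidneys, against 14.6 and 28.3 CPM in the untransplanted ones. It was called higher in both pairs, at 1.30 (1.04 to 1.56) and 1.09 (0.91 to 1.27). In the test over both genotypes its log2 fold change was 1.16 (SE 0.46, edgeR adjusted p = 0.186). SLC6A6 rose with genotype as a block. SLC6A8, which takes up creatine, had 6.48 and 9.46 CPM in the transplanted kidneys, against 12.8 and 18.6 CPM in the untransplanted ones, a ratio of -0.98 in each genotype, short of the 2-fold threshold. SLC6A13, a carrier of GABA and betaine, had 5 and 10 counts in the transplanted kidneys, against 13 and 27 in the untransplanted ones, and was called lower in the CD39/CD55 pair (-1.24, -2.49 to -0.19).

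Of 11 carriers that supply cells with amino acids for growth and defence, 0 passed; 4 were called higher and 2 lower in the CD39/CD46/CD55/TBM pair, and 1 higher and 3 lower in the CD39/CD55 pair. SLC38A1, a sodium-coupled glutamine carrier, had 66.3 CPM in transplanted CD39/CD46/CD55/TBM and 21.4 CPM in transplanted CD39/CD55, against 13.2 and 6.92 CPM in the untransplanted ones. Both transplanted values were above both untransplanted ones, and the gene was called higher in both pairs, at 2.32 (2.08 to 2.58) and 1.62 (1.29 to 1.98). Its log2 fold change of 2.12 (SE 0.56) had an edgeR adjusted p of 0.0544, just over the threshold, within 3.01e-05 to 0.366 over 11 alternatives. The overlapping LOC106510388 had 656 and 431 counts in the transplanted kidneys against 164 and 166 in the untransplanted ones. Counts of SLC38A1 may include reads of this locus, and such reads cannot be told apart here.

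SLC38A2, the neighbouring gene and a like carrier, had 71.6 and 86.5 CPM in the transplanted CD39/CD46/CD55/TBM and CD39/CD55 kidneys, against 37.1 and 54.9 CPM in the untransplanted ones, with ratios of 0.95 (0.78 to 1.12) and 0.65 (0.52 to 0.79). Transplanted values were above untransplanted ones here too, by less than 2-fold. SLC1A5, an exchanger of glutamine and other neutral amino acids, had 40.7 and 123 CPM in the transplanted kidneys, against 135 and 191 CPM in the untransplanted ones. It was called lower in the CD39/CD46/CD55/TBM pair (-1.73, -1.89 to -1.57) and not in the CD39/CD55 pair (-0.64, -0.73 to -0.55). The 3 glutamine carriers thus had different patterns, SLC38A1 and SLC38A2 at their highest and SLC1A5 at its lowest in transplanted kidneys.

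SLC7A5, the large neutral amino acid exchanger of growing cells, is listed on chromosome 6 from 1545940 to 1574298. RefSeq annotates the locus of this symbol as a long non-coding RNA, the only one of the 47 that is not protein-coding, so its counts may not be those of the transporter's messenger RNA. It had 4 counts in CD39/CD46/CD55/TBM after transplantation and 27 in transplanted CD39/CD55, against 15 and 361 in the untransplanted ones. The untransplanted CD39/CD55 kidney stood apart from the other 3. The log2 fold change of transplantation, -3.38 (SE 1.08, edgeR adjusted p = 0.105), did not pass, and the gene was called lower in the CD39/CD55 pair (-3.57, -4.21 to -3.03) but not in the CD39/CD46/CD55/TBM pair (-1.51, -3.67 to 0.03).

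SLC7A11, the cystine and glutamate exchanger that supplies cysteine for glutathione, had 78 counts in CD39/CD46/CD55/TBM after transplantation and 33 in transplanted CD39/CD55, against 18 and 27 in the untransplanted ones. It was highest in transplanted CD39/CD46/CD55/TBM tissue, and was called higher in that pair (2.37, 1.65 to 3.23) and not in the CD39/CD55 pair (0.43, -0.34 to 1.23). SLC7A1, a cationic amino acid carrier, had 116 and 103 counts in the transplanted kidneys, against 53 and 72 in the untransplanted ones, and was called higher in the CD39/CD46/CD55/TBM pair (1.41, 0.94 to 1.92). Its relative SLC7A2 had 75 and 115, against 141 and 309, and was called lower in the CD39/CD55 pair (-1.27, -1.60 to -0.96). SLC1A4, a carrier of alanine, serine and cysteine, had 12 and 7 counts in the transplanted kidneys, against 19 and 47 in the untransplanted ones, and was also called lower in the CD39/CD55 pair (-2.52, -3.99 to -1.44). SLC38A4, SLC38A5 and SLC43A1 had 1 to 89 counts in any library, and none of the carriers in this group passed the test without a block. With genotype as a block, SLC38A1 rose, and SLC1A5 and SLC7A5 fell.

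Among the 6 genes whose proteins are known from lysosomes and other inner membranes, 0 passed without a block. With genotype as a block, SLC36A4 rose and SLC38A7 fell. SLC36A4, a carrier of proline and tryptophan, had 33.1 and 28.3 CPM in the transplanted CD39/CD46/CD55/TBM and CD39/CD55 kidneys, against 9.96 and 11.7 CPM in the untransplanted ones. Values within a state were close and the states did not overlap; the log2 fold change was 1.5 (SE 0.42, edgeR adjusted p = 0.0655; 0.00406 to 0.238 over 11 alternatives), and both pairs were called higher. DEUP1, which overlaps SLC36A4, had 1827 and 2867 counts in the transplanted kidneys against 3739 and 1597 in the untransplanted ones. SLC38A7, which lets glutamine out of lysosomes, had 37 and 113 counts, against 116 and 268, and was called lower in both pairs (-1.35, -1.93 to -0.81, and -1.09, -1.43 to -0.77). SLC38A9, the lysosomal arginine sensor of the mTORC1 pathway, had 89.2 and 59.8 CPM in the transplanted kidneys, against 65.5 and 43.1 CPM in the untransplanted ones, with ratios of 0.44 and 0.47. SLC36A1, a proton-coupled carrier of lysosomes, had 13.1 and 9.78 CPM, against 18.1 and 14.4 CPM. SLC7A14 had 3 to 16 counts in any library.

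Genes best known from neurons, glia and other transmitter-handling cells had at most 101 counts in any library, and 0 of 9 passed the test without a block. SLC6A4 alone of them rose with genotype as a block. SLC6A4, which takes up serotonin, had 41 and 50 counts in the transplanted CD39/CD46/CD55/TBM and CD39/CD55 kidneys, against 12 and 11 in the untransplanted ones. Its values were alike within each state, and it was called higher in both pairs (2.01, 1.11 to 3.13, and 2.28, 1.37 to 3.43), with a log2 fold change of 2.18 (SE 0.64, edgeR adjusted p = 0.0791; 0.0166 to 0.352 over 11 alternatives). LOC106505485, which overlaps it, had 23 and 32 counts against 4 and 4. SLC1A2, a glutamate carrier of glia, had 48 and 28 counts in the transplanted kidneys, against 23 and 29 in the untransplanted ones. SLC6A17, a carrier of synaptic vesicles, had 64 and 27 counts, against 101 and 86. SLC1A2 was called higher in the CD39/CD46/CD55/TBM pair (1.33) and SLC6A17 lower in the CD39/CD55 pair (-1.51). SLC7A10 had 2 and 0 counts in the transplanted kidneys, against 2 and 11 in the untransplanted ones; it met the count minimum through the untransplanted CD39/CD55 library alone, so its calls follow in part from the minimum.

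The last 5 tested genes were SLC38A6, SLC38A11, SLC43A3, SLC7A4 and SLC7A6OS. SLC43A3, which carries purine bases, had 39 and 84 counts in the transplanted CD39/CD46/CD55/TBM and CD39/CD55 kidneys, against 27 and 12 in the untransplanted ones. Its ratio was 0.81 (0.08 to 1.59) in the CD39/CD46/CD55/TBM pair and 2.90 (2.08 to 3.97) in the CD39/CD55 pair, the highest in that pair among the 47. SLC43A3 rose with genotype as a block and not without it. SLC38A6 had 40.9 and 31.1 CPM in the transplanted kidneys, against 53.9 and 58.2 CPM in the untransplanted ones, and was called in neither pair.

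**Figure D3:**
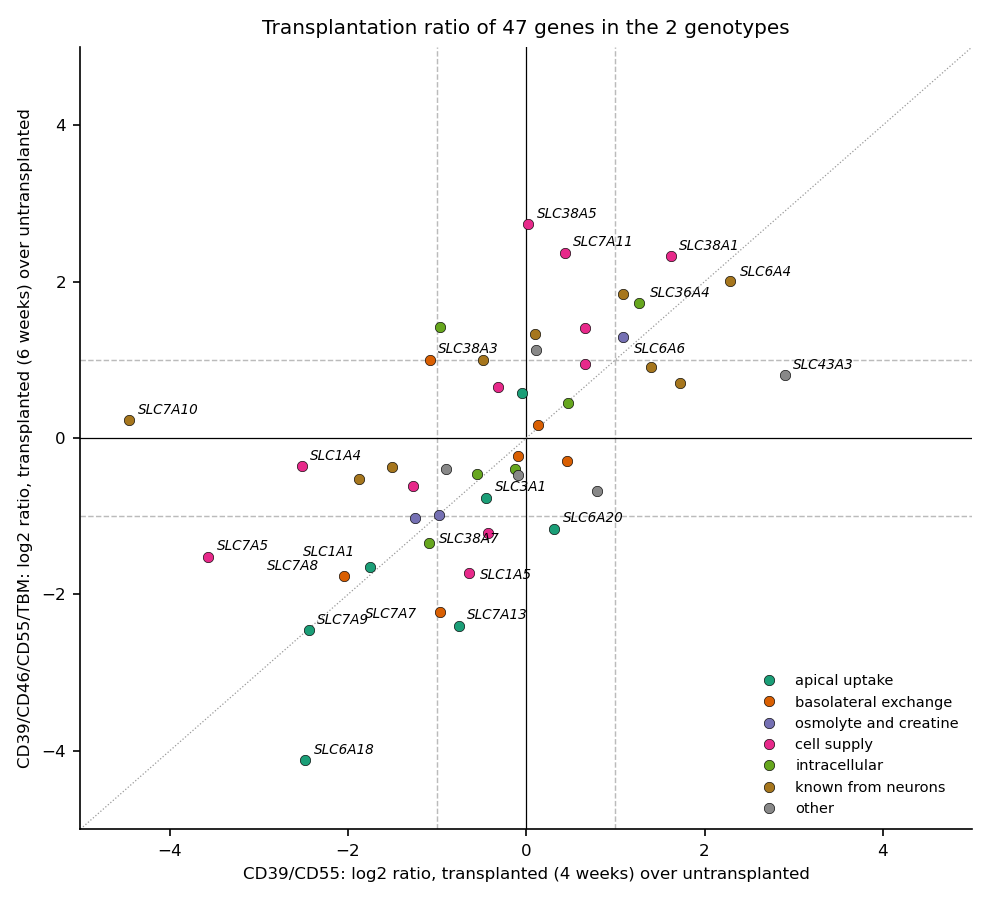
Log2 ratio of transplanted over untransplanted scaled counts for the 47 genes, in CD39/CD46/CD55/TBM (6 weeks, vertical axis) and CD39/CD55 (4 weeks, horizontal axis), with dashed lines at 2-fold, a dotted line at equality and colour by role; each point is 1 gene, and SLC7A10 rests on a count of 0. SLC7A9 lies on the line of equality at -2.45 and -2.44, SLC6A18 below it at -4.12 and -2.48, and SLC38A3 in the upper left at 1.0 and -1.08.

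The size of the transplantation ratio was then compared between the genotypes, as the CD39/CD46/CD55/TBM ratio minus the CD39/CD55 ratio. The difference was called where it exceeded 2-fold and its 95% counting interval left out 0. It was called higher for 7 of the 47 genes (14.9%) and lower for 6 (12.8%), beside 10.3% and 11.5% of all genes. The 7 higher ones were SLC38A3 (2.08, 1.69 to 2.48), SLC1A4 (2.16, 0.65 to 3.67), SLC7A5 (2.05, 0.44 to 3.67), SLC7A11 (1.94, 0.91 to 2.97), SLC7A14 (2.38, 0.17 to 4.59, with the minimum met through its transplanted CD39/CD46/CD55/TBM library alone), SLC1A2 (1.23, 0.21 to 2.26) and SLC6A17 (1.14, 0.37 to 1.90). The 6 lower ones were SLC6A18 (-1.64, -2.10 to -1.17), SLC7A13 (-1.64, -2.16 to -1.12), SLC6A20 (-1.47, -1.67 to -1.28), SLC7A7 (-1.25, -1.44 to -1.06), SLC1A5 (-1.09, -1.27 to -0.91) and SLC43A3 (-2.10, -3.20 to -0.99). Of these 6, 3 are apical carriers and SLC7A7 is basolateral, so 4 tubular carriers had a lower ratio in the CD39/CD46/CD55/TBM pair. SLC38A3, also basolateral, went the other way and is among the 7 higher ones. SLC6A20 and SLC7A7 overlap other annotated genes, whose reads their counts may include. With 1 library per group these differences have no replicate check, and weeks after transplantation differed with genotype.

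Between the genotypes, 0 of the 47 genes passed edgeR's test over both states, as did 0.0% of all genes tested. At an unadjusted p under 0.05 there were 3 of the 47 (SLC38A10, SLC6A15 and SLC7A5) and 449 of all genes. DESeq2's Wald test passed 12 genes higher and 5 lower among all genes, and limma voom 0; none of the 47 passed with either. Between the transplanted kidneys, 7 of the 47 were called higher (14.9%) in CD39/CD46/CD55/TBM and 5 lower (10.6%), beside 11.0% and 11.0% of all genes. Between the untransplanted kidneys, 4 were called higher (8.51%) and 11 lower (23.4%), beside 8.16% and 7.89%.

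A total of 6 genes were called the same way between the genotypes in both states. The locus listed as SLC7A5, with the counts given above, was lower in CD39/CD46/CD55/TBM by -2.37 (-4.47 to -0.98) in transplanted and by -4.43 (-5.32 to -3.73) in untransplanted kidneys. SLC38A10, a carrier of inner membranes, had 84 counts in transplanted CD39/CD46/CD55/TBM tissue against 341 in the transplanted CD39/CD55 one, and 135 against 412 in the untransplanted kidneys, ratios of -1.76 (-2.13 to -1.41) and -1.49 (-1.78 to -1.21). SLC6A18 and SLC38A7 were also lower in CD39/CD46/CD55/TBM in both states, SLC6A18 by -2.74 and -1.10 and SLC38A7 by -1.34 and -1.09. SLC7A8 was higher by 1.36 (1.13 to 1.59) in transplanted and 1.07 (0.96 to 1.18) in untransplanted kidneys. SLC6A15, a neutral amino acid carrier of neurons, had 33 against 5 counts in the transplanted and 20 against 8 in the untransplanted kidneys. LRRIQ1, which overlaps SLC6A15, had 261 against 128 and 211 against 93 counts, and counts of SLC6A15 may include its reads. Of the 6 genes, 4 were lower and 2 higher in CD39/CD46/CD55/TBM. Their like order in both states follows from how they were picked, and the share of all genes called so was not counted.

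Other calls between the genotypes were found in 1 state alone. In the untransplanted kidneys SLC7A13 was higher in CD39/CD46/CD55/TBM by 1.99 (1.72 to 2.27), with 525 against 143 counts, and SLC43A3 by 1.25 (0.26 to 2.40), with 27 against 12. Lower there were SLC38A3 (-2.20, -2.51 to -1.92), SLC7A2 (-1.01, -1.31 to -0.72), SLC1A4 (-1.17, -2.04 to -0.39), SLC7A4 (12 against 34 counts), SLC43A1 (6 against 25), SLC7A10 (2 against 11) and SLC38A5 (1 against 12). In the transplanted kidneys SLC38A1 was higher by 1.63 (1.42 to 1.84), SLC7A11 by 1.48 (0.89 to 2.13), SLC6A17 by 1.48 (0.83 to 2.21) and SLC1A2 by 1.02 (0.33 to 1.76). SLC7A14, with 16 against 3 counts, was the other gene called higher there, and it met the count minimum through that library alone. SLC1A5 was lower there by -1.59 (-1.76 to -1.44). Among the untransplanted calls most were of genes lower in CD39/CD46/CD55/TBM, and 5 of those 11 rested on fewer than 50 counts in either library.

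**Figure D4:**
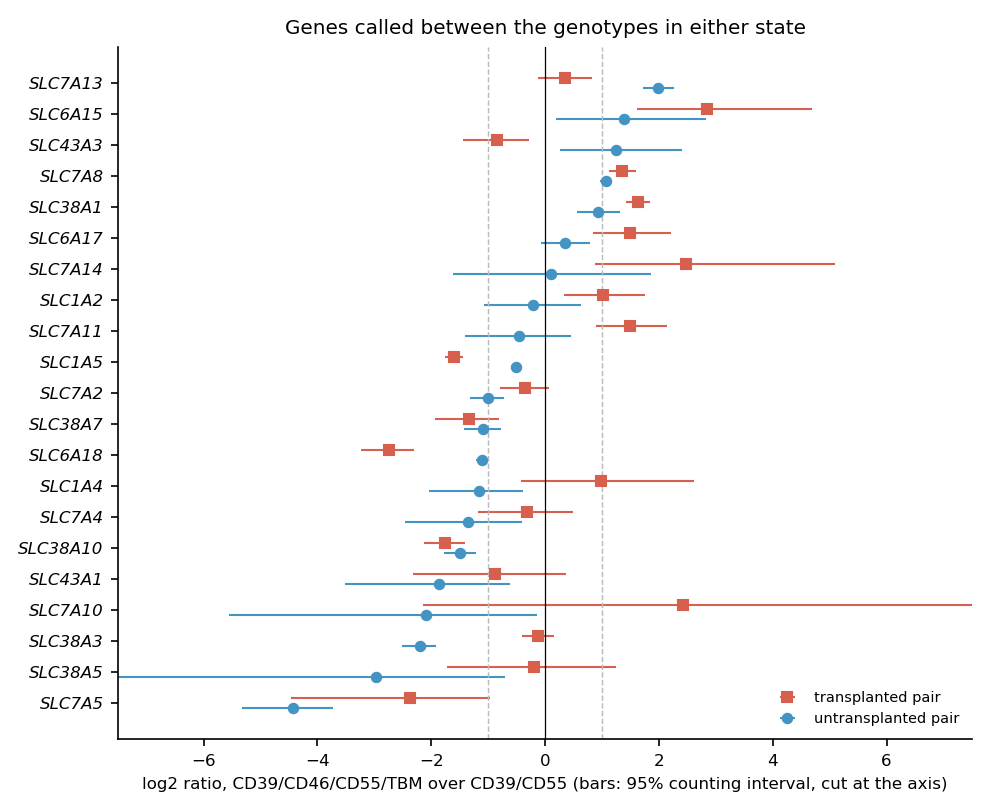
Log2 ratio of CD39/CD46/CD55/TBM over CD39/CD55 for the genes called in at least 1 state, with the transplanted pair in red above the untransplanted pair in blue and 95% counting intervals as bars, cut at the edges; dashed lines mark 2-fold. SLC7A5, SLC38A10, SLC6A18 and SLC38A7 lie left of -1 and SLC7A8 and SLC6A15 right of 1 in both states.

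Other genes of amino acid and peptide recovery were followed with a list of partners, brush border peptidases, scaffolds and regulators, of which 21 are reported. Of these 7 fell and 0 rose, beside 2.71% and 1.24% of all genes tested, and the median log2 fold change was -0.97. At least 6 fell under every alternative tried, and up to 2 rose. Peptidases that release amino acids at the brush border carried most of the calls: MME, DPEP1, GGT1, ANPEP, XPNPEP2 and MEP1B fell. The other peptidases of the list did not pass. ENPEP was lower (log2 fold change -1.39, edgeR adjusted p = 0.133). MEP1A went the other way (2.87, edgeR adjusted p = 0.117), with 80 and 9 counts in the transplanted CD39/CD46/CD55/TBM and CD39/CD55 kidneys, against 6 and 9 in the untransplanted ones. MME had 1089 and 1546 counts in the transplanted CD39/CD46/CD55/TBM and CD39/CD55 kidneys, against 9506 and 16895 in the untransplanted ones (log2 fold change -3.11, SE 0.52, edgeR adjusted p = 0.00720). SLC15A2, the high-affinity carrier of small peptides, had 85 and 159 counts, against 837 and 780 (-2.54, SE 0.44, edgeR adjusted p = 0.00841). For both genes the transplanted kidneys lay far below both untransplanted ones.

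TMEM27 itself had 1236 and 3564 counts in the transplanted CD39/CD46/CD55/TBM and CD39/CD55 kidneys, against 4171 and 4829 in the untransplanted ones (-0.74, edgeR adjusted p = 0.441). HNF4A, a transcription factor of the proximal tubule, had 819 and 3407 counts, against 3303 and 2860, and was called lower in the CD39/CD46/CD55/TBM pair (-1.72) and not in the CD39/CD55 pair (0.40). For both of these genes the transplanted CD39/CD46/CD55/TBM kidney was the lowest of the 4 libraries. ATF4, the factor that raises amino acid carriers when amino acids run short, had 1752 and 1854 counts, against 877 and 616, and was called higher in both pairs (log2 fold change 1.48, SE 0.43, edgeR adjusted p = 0.0786). ASNS, a textbook target of ATF4, had 29 and 20 counts, against 30 and 15. SLC16A10, which lets aromatic amino acids out to the blood, had 2252 and 1549 counts, against 1251 and 1597, and was called higher in the CD39/CD46/CD55/TBM pair (1.14).

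**Figure D5:**
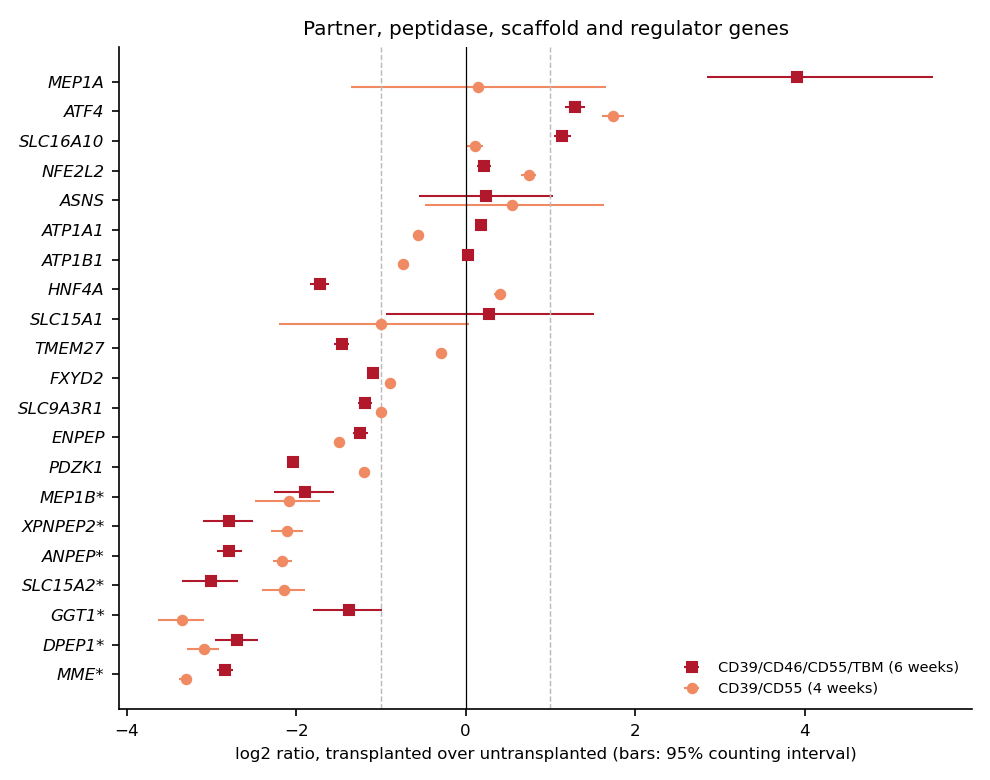
Log2 ratio of transplanted over untransplanted scaled counts for 21 partner, peptidase, scaffold and regulator genes, in CD39/CD46/CD55/TBM (squares, above) and CD39/CD55 (circles, below), with 95% counting intervals; an asterisk marks an edgeR adjusted p under 0.05 over both genotypes, and dashed lines mark 2-fold. The 7 marked genes lie left of -1 in both genotypes, and MEP1A lies at 3.91 and 0.14.

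Markers of kidney cell types and of leukocytes were also followed. The median log2 fold change was -3.63 for the proximal tubule markers, against -1.71 for the 7 apical carriers. Of 9 proximal tubule markers, 8 fell, and the summed level of the 9 was 726 and 1061 CPM in the transplanted CD39/CD46/CD55/TBM and CD39/CD55 kidneys, against 6709 and 6984 CPM in the untransplanted ones. CUBN, a receptor for filtered proteins, did not pass (3981 and 5619 counts, against 11879 and 14021). Transcripts of kidney tubule genes such as UMOD were counted in every library (2214 and 6945 counts, against 15092 and 45070). SLC12A1, a thick ascending limb marker like UMOD, was called in neither pair (1550 and 1134 counts, against 1499 and 1232). Of the 4 collecting duct markers, ATP6V1B1 had 1793 and 3141 counts, against 4707 and 5398, and FXYD4 had 207 and 401, against 138 and 350. The collecting duct water channels AQP2 and AQP3 had at most 27 counts and 1 count in any library. Of 6 leukocyte markers, 4 met the count minimum. These 4 summed to 5.80 and 3.15 CPM in the transplanted kidneys against 33.4 and 34.9 CPM in the untransplanted ones, and 2 of them fell. Among them C1QC was at 0 in both transplanted libraries (158 and 152 counts in the untransplanted ones), and CD3E and MS4A1, under the minimum, had 0 to 5 counts throughout. PTPRC did not pass (31 and 27 counts, against 120 and 141), nor did CD68 (23 and 11 counts, against 29 and 36). The sources used here do not say what was done with reads from the recipient primate. The part of cell make-up and of ribosomal RNA content in the transporter results was not tested.

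Of the 47 genes, 18 overlap another annotated gene, and the sources used here do not say whether counting used strand. Values of those genes may include reads of the neighbour. Of the 3 genes that fell, SLC6A18 has no such neighbour, and neither have SLC7A8, SLC7A5, SLC38A3, SLC1A5 and SLC6A6.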

How the data were processed

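RNA of 4 pig kidneys was sequenced, 1 library per group. The authors deposited raw read counts for each gene, without normalization. Per the labels' protocols, libraries were made from total RNA with a Lexogen QuantSeq kit; it is unsettled here if they cover whole transcripts or 3' ends only, so ratios between genes within a library are read only for how they differ between libraries. Per the submitters' processing notes, Bowtie2, bedtools and the build Sscrofa11.1 were used; the sources used here do not give versions, parameters, strand use or the handling of reads from the recipient or from several genes.

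Lines with the same symbol were summed. Of 26466 symbols, 18168 with at least 10 counts in at least 1 library were tested with edgeR 4.0.16 (R 4.3.3; TMM, quasi-likelihood, no block, 2 residual degrees of freedom), 2 libraries against 2, for transplantation over both genotypes and for genotype over both states. Nothing says that libraries of a side are biological replicates of each other beyond the factor tested, so p-values measure the spread between these samples only. SE is the log2 fold change divided by the square root of F. Pairs of single libraries were compared by log2 ratios with a prior of 0.5 counts and exact conditional binomial (Clopper-Pearson) 95% intervals, which, like the floors of 3 counts, cover counting error only; the interval of a difference of ratios is a normal one. The fits were tested on simulated data. Alternatives were DESeq2 1.42.0 (Wald test and size factors), limma 3.58.1 (voom), total count scaling, leaving out ribosomal and mitochondrial genes, no filter, the other factor as a block, leaving out each library and, for pairs, a prior of 2 counts and a 3-fold threshold. Coordinates and overlaps are from RefSeq's gene table of the same build, which held all 47 genes.

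Genes are named if they passed the test, were called alike in both genotypes, differed in their ratio between genotypes, were called between untransplanted kidneys, were among the 10 with most counts or belong to a list of kidney carriers; SLC43A3's rank, SLC38A6, SLC38A9, SLC36A4 and the genes called between transplanted kidneys alone are given beside them. Members and lists were chosen with earlier results of these data known. A few genes of the pathway and marker lists are not reported here. No sequences are shown.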

Additional observations from a re-analysis of the deposited data

Results flagged for a closer look

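SLC38A3, the basolateral glutamine carrier, was picked out because its level was higher after transplantation in 1 genotype and lower in the other. The log2 ratio of transplanted over untransplanted was 1.0 in CD39/CD46/CD55/TBM and -1.08 in CD39/CD55, a difference of 2.08 (95% counting interval 1.69 to 2.48). With 1 library per group the difference was not tested against any spread between kidneys. The transplanted kidneys had 192 and 250 counts, against 117 and 587 in the untransplanted kidneys of CD39/CD46/CD55/TBM and CD39/CD55. The direction held under every scaling and prior tried, but each call sits at the 2-fold threshold: the first was lost with DESeq2 size factors (0.9965) and with a prior of 2 counts (0.9914), the second under total count scaling (-0.9447), and both at a 3-fold threshold.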

How the results depend on the processing

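No direction turned among the results recomputed, which are the counts and medians of the 47 genes, the change of 9 named genes and the ratios of SLC38A3; other genes and the partner ratios were not recomputed one by one. In the test over both genotypes, the number of transporter genes that fell (3) became 1 under total count scaling (SLC7A9), 7 with no filter, 6 with DESeq2's Wald test, 9 with genotype as a block, and 3 to 8 when 1 library was left out (of the CD39/CD46/CD55/TBM libraries, 3 if the transplanted and 4 if the untransplanted one is dropped; of the CD39/CD55 libraries, 8 and 5). The number that rose (0) became 1 under total count scaling (SLC38A1), 3 with no filter, 2 with DESeq2's Wald test, 5 with genotype as a block, and 0 to 3 when 1 library was left out (3 if transplanted CD39/CD55 is dropped, 1 if untransplanted CD39/CD46/CD55/TBM is). Between genotypes, 0 became 3 with state as a block (SLC38A10, SLC6A18 and SLC7A5) and 0 to 1 when 1 library was left out (SLC7A5, without the transplanted CD39/CD55 library). SLC7A9 fell in every fit for transplantation. Over all genes, 225 rose and 493 fell, against 1124 and 1681 with the block, 413 and 860 with DESeq2's Wald test, 543 and 1035 with no filter, 248 and 376 under total count scaling, and 1051 and 1349 if transplanted CD39/CD55 is dropped. For genotype, 0 of all genes passed, against 133 higher and 171 lower with the block. Total count scaling moved the median of all genes to 0.16 in the CD39/CD55 pair and that of the 47 genes to -0.18; the cause was not tested.

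At a 3-fold threshold, genes called higher were 5 in the CD39/CD46/CD55/TBM pair, 4 in the CD39/CD55 pair, 3 between transplanted and 1 between untransplanted kidneys; those called lower were 8 in the CD39/CD55 pair and 5 between untransplanted kidneys, and 3 differences of ratios were called lower. A stricter threshold leaves fewer calls by construction, and the shares of all genes called at 3-fold were not counted. The alternatives for the pathway and proximal tubule lists were chosen after seeing the data: 6 to 10 of the 21 pathway genes and 7 to 9 of the 9 markers fell. The labels carry no replicate numbers, so the block by genotype is the one paired fit that could be made. Depth limits most the 14 genes with fewer than 50 counts in every library.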
